A study of Homo sapiens with 8 samples.

Results

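Translation factors are the proteins that place a ribosome on an mRNA, choose its start codon, and move it along codon by codon. Initiation factors (eIFs) bind the cap, unwind the leader, deliver the initiator tRNA and join the ribosomal subunits, and elongation factors (eEFs) bring aminoacyl-tRNAs and translocate the ribosome. Many elongation factor mRNAs, like ribosomal protein mRNAs, begin with a C followed by a run of pyrimidines, the 5′ terminal oligopyrimidine (TOP) motif, through which mTOR and the RNA-binding protein LARP1 control their translation and stability. The genes described here are the protein-coding genes whose symbols begin with EIF or EEF and the number of such a factor, apart from the eIF2 kinases and 1 further gene. Of 66 genes found by symbol, 61 reached a mean of 10 normalized counts over the 8 libraries, as did 17194 of the 58884 rows of the table, and these 61 are called members below. EEF1G, EIF1AY, EIF4E1B and the readthrough genes EEF1AKMT4-ECE2 and EEF1E1-BLOC1S5 were under this mean. The rule for members uses no difference between the groups, although it was chosen with earlier results of these data known.

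The libraries were made from poly(A) RNA of C4-2, a human prostate cancer line that was derived from LNCaP and grows without androgen (castration-resistant), cultured in RPMI with serum. Cells were kept for 48 h with 1 µM DTHIB (also called E12), which the labels describe as a direct inhibitor of the heat shock transcription factor HSF1, or with the solvent DMSO, and each group has 4 libraries. The labels do not say whether the 4 came from separate cultures, and the p-values therefore cover no more than the spread among these libraries, which may be technical. The labels name 1 line and no engineered allele.

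Counted reads numbered 29499458 to 30926053 per DMSO library and 27229291 to 29159387 per DTHIB library. No library stood apart, with Pearson correlations across genes of 0.993 to 0.994 within groups and 0.973 to 0.981 between them. The luminal prostate markers, 9 of 9 tested and KLK3 among them, summed to 216100 to 220600 normalized counts with DMSO and 263500 to 269400 with DTHIB. The 6 stromal markers, of which COL1A1 and ACTA2 were tested, summed to 989 to 1100 with DMSO and 1221 to 1464 with DTHIB. The 3 endothelial markers, of which VWF was tested, summed to 132 to 170 and 145 to 193. The 5 blood cell markers, of which LYZ was tested, summed to 26.1 to 27.8 and 12.5 to 14.98. None of these markers was at 0, and their part in the results was not tested. The transcript of HSF1 itself was at 5260 ± 207 normalized counts with DMSO and 4897 ± 70.1 with DTHIB (SD, n = 4 each).

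After DTHIB the 2 abundant elongation factor transcripts, EEF1A1 and EEF2, rose, as did the tested eIF2 subunits and most of eIF3, while the cap-binding protein EIF4E, the scaffold EIF4G1, the eIF5A transcripts and 3 subunits of eIF2B fell. Of the 61 members 27 were higher, 22 were lower and 12 did not pass, at an adjusted p (limma, Benjamini-Hochberg over the 17194 genes) under 0.05. Over all genes tested 31.0% were higher and 33.7% were lower, 64.6% in all, so a call by itself was common in this experiment. The median log2 fold change, DTHIB minus DMSO, was 0.045 over the members and -0.0051 over all genes. In 24 members all DTHIB libraries lay above all DMSO libraries (27.1% of all genes) and in 20 they lay below (30.8%). Changes were small: EIF4A1, EIF4A2 and EEF2 passed 1.5-fold, 3 of 61 members, against 3680 of 17194 genes. In bulk RNA, fewer cells of a type and less RNA per cell cannot be told apart.

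Together the members took 2.28% to 2.30% of all counted reads with DMSO and 2.72% to 2.80% with DTHIB, groups that do not overlap. EEF1A1 alone took 0.578% to 0.596% and then 0.749% to 0.777%, and EEF2 0.341% to 0.346% and then 0.516% to 0.546%. EEF1A1 held more reads than any other gene in every library. The authors' deposited table gave 27 members higher (20.6% of its tested genes) and 19 lower (23.0%), and its call matched in 58 of 61. EIF5AL1, EEF2KMT and EEF1E1 were called lower here and did not pass there.

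**Figure D1:**
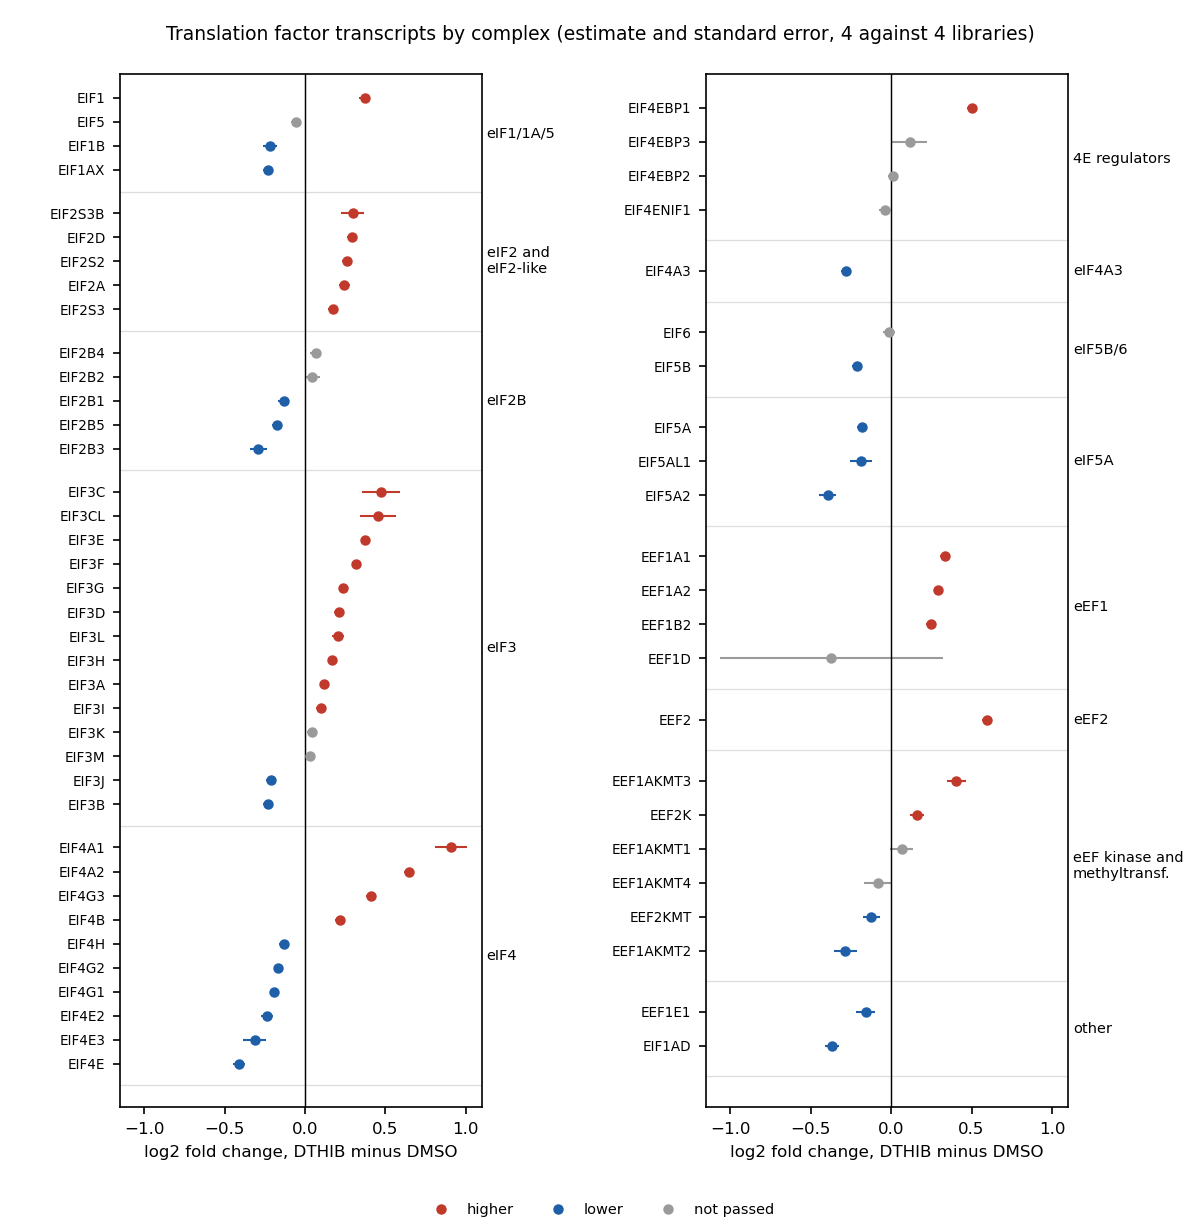
Log2 fold change (DTHIB minus DMSO, on the log2(normalized count + 1) scale) of the 61 members grouped by complex, with points for the estimate, bars for its standard error over 4 against 4 libraries, and colours for the call at an adjusted p under 0.05. The eIF2 and eEF2 points all lie above 0, those of eIF5A all below, and eIF4 is split, with 4 members above and 6 below.

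The first bases of the annotated transcripts were read for the members, since a TOP motif is known in several of them. RefSeq starts on GRCh38.p14 were found for 48 of the 61 members. No entry was found for EEF1A2, EEF1AKMT1, EEF1AKMT3, EEF1D, EEF2KMT, EIF2S2, EIF3A, EIF3CL, EIF3E, EIF3G, EIF3H, EIF3L and EIF4EBP1. The motif searched was a C at an annotated start followed by 4 bases that are each C or T, on the transcribed strand only. Each line gives 15 bases before the start and 15 from it, 5′ to 3′ on the gene's strand, with the first 5 transcribed bases in capitals. Shown first are the members with the motif whose log2 fold change was above 0.30, and the 2 with the motif that did not pass. Then come all annotated starts of the members without the motif whose log2 fold change was past 0.30 in either direction.
EEF1A1 (chr6:73521018-73521047, minus strand): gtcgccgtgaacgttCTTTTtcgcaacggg
EEF2 (chr19:3985449-3985478, minus strand): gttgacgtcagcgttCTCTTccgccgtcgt
EIF4A2 (chr3:186783562-186783591, plus strand): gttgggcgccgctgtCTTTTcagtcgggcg
EIF3F (chr11:7987322-7987351, plus strand): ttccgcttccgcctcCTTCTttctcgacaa
EIF3K (chr19:38619173-38619202, plus strand): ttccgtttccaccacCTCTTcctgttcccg
EIF3M (chr11:32583816-32583845, plus strand): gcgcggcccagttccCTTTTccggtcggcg
EIF4A1 (chr17:7572810-7572839, plus strand): aggcgggcactccgcCCTAGtttctaagga
EIF3C (chr16:28688543-28688572, plus strand): ctctgtcccacccccGTGGCaggcagccct
EIF4G3 (chr1:21111369-21111398, minus strand): gctaattctttccagCAATCccacagagta
EIF4G3 (chr1:21176883-21176912, minus strand): cgaagttttccgagcAGCCGtcctgccgga
EIF1 (chr17:41688870-41688899, plus strand): aggcaccgcccctctGCCCCagtcactgag
EIF4E (chr4:98929119-98929148, minus strand): ccttctggagcggttGTGCGatcagatcga
EIF5A2 (chr3:170908623-170908652, minus strand): cccgccccgtctcttGGAACtgccgcggcc
EIF1AD (chr11:66002143-66002172, minus strand): cgagacagcgccggaAGTACggttttcgga
EIF4E3 (chr3:71729104-71729133, minus strand): gatgatgaaagttggGCTGAtgggattacc
EIF4E3 (chr3:71754484-71754513, minus strand): gccgcggccagcgccAGCGCccaggcggcg
EIF4E3 (chr3:71754759-71754788, minus strand): cgaagcccgccgtccAGTTGgcggccgcct
In EEF1A1, EEF2, EIF4A2 and EIF3F, all higher with DTHIB, the capitals are a C and pyrimidines, as they are in EIF3K and EIF3M, which did not pass. The capitals of the other lines each hold a purine, in the lower EIF4E, EIF5A2, EIF1AD and EIF4E3 as in the higher EIF4A1, EIF3C, EIF4G3 and EIF1. EEF1B2 and EIF2S3B have the motif at 1 of their 2 annotated starts.

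The motif was found in 13 of the 48 matched members, 27.1%, against 6.96% of the 11651 tested genes that have an annotated start and 4.07% of the 35116 starts in the table. Of these 13, EEF1A1, EEF1B2, EEF2, EIF2A, EIF2D, EIF2S3, EIF2S3B, EIF3D, EIF3F, EIF4A2 and EIF4B were higher, none was lower, and EIF3K and EIF3M did not pass. Their log2 fold changes ran from 0.033 to 0.65 with a median of 0.25. Among them EIF2S3B is a close relative of EIF2S3, and 26.8% and 19.2% of their 50-base stretches occur in other genes. They may therefore not count as separate genes with the motif, and the groups of EIF2S3B overlapped. Of the 35 members without the motif 6 were higher, 21 were lower and 8 did not pass, with a median of -0.17. The 6 were EEF2K, EIF1, EIF3C, EIF3I, EIF4A1 and EIF4G3. Members without an entry could not be sorted by their start, and most of them were higher. EEF1A2, EEF1AKMT3, EIF2S2, EIF3A, EIF3CL, EIF3E, EIF3G, EIF3H, EIF3L and EIF4EBP1 were higher, EEF2KMT was lower, and EEF1AKMT1 and EEF1D did not pass. The split by motif leaves these genes out. Over all tested genes with an entry, 41.8% of the 811 with the motif were higher and 29.5% were lower (median 0.062), and 28.8% and 39.3% of the 10840 without it (median -0.047). Genes with several starts have more chances to match: among members with 1 annotated start, 9 of 11 with the motif were higher and 2 did not pass, and of 26 without it 5 were higher, 16 lower and 5 did not pass. Over all tested genes with 1 annotated start, 45.7% of the 442 with the motif were higher and 24.0% were lower. Without it, 28.4% of 7983 were higher and 39.05% were lower. A match is a run of letters at an annotated position and was not tested for use in these cells.

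**Figure D2:**
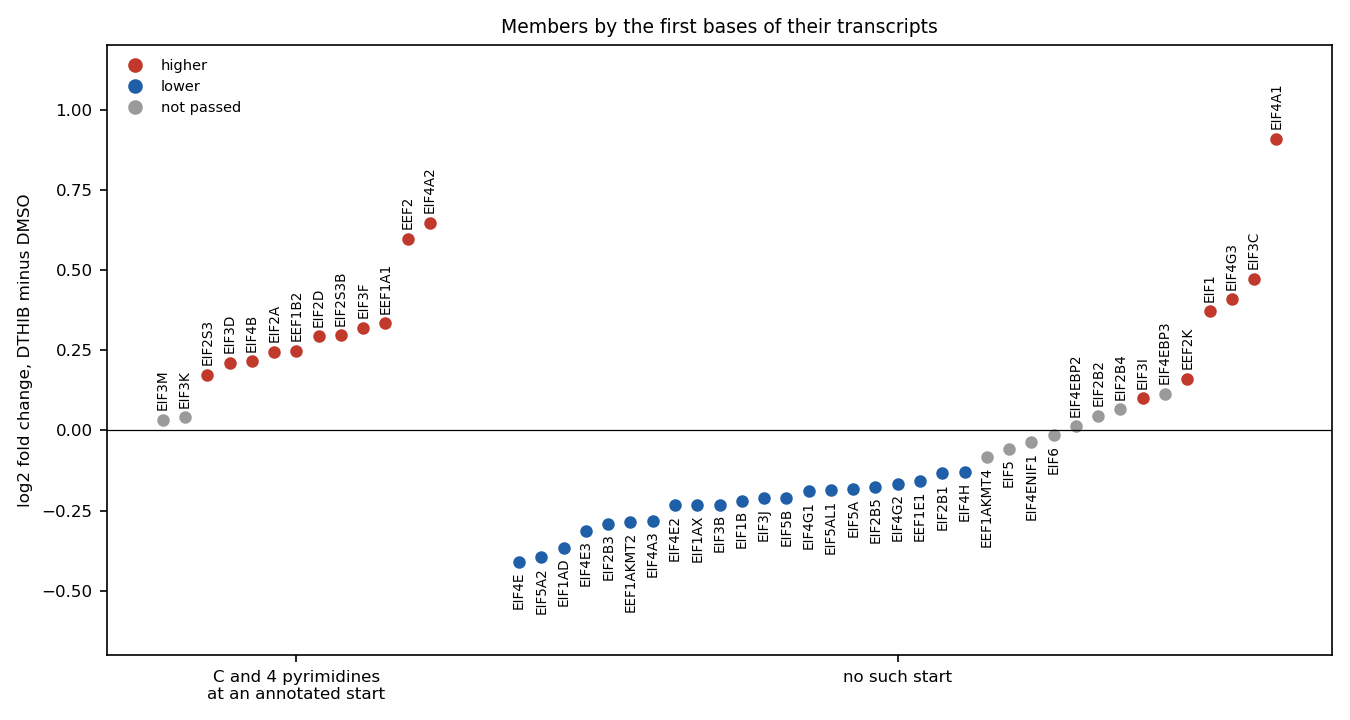
Log2 fold change (vertical axis, DTHIB minus DMSO) of the 48 members with an annotated RefSeq start, ordered within those with a C and 4 pyrimidines at a start (left, 13 members) and those without (right, 35 members). No member on the left is below 0, and those on the right run from -0.41 for EIF4E to 0.91 for EIF4A1.

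A list of members long known to carry a TOP motif gave a similar count: 9 of the 10 that could be tested were higher and none lower, with 0.27 as the median log2 fold change. The 9 were EEF1A1, EEF1A2, EEF1B2, EEF2, EIF3A, EIF3E, EIF3F, EIF3H and EIF4B, and EEF1D did not pass. EEF1A1, EEF1B2, EEF2, EIF3F and EIF4B were already counted above as higher with the motif, so the counts share genes. Of the other 51 members 18 were higher and 22 lower, with a median of -0.015. This list was drawn up with results on ribosomal protein and TOP transcripts of these libraries known, so its direction is not independent evidence.

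Elongation begins with eEF1A, the GTPase that carries aminoacyl-tRNA to the ribosome. EEF1A1, its widely expressed form, lies on chromosome 6 (GENCODE 29, 73515750 to 73523797, minus strand). Its normalized counts were 170935, 170386, 177755 and 174099 in DMSO replicates 1 to 4 and 225087, 212476, 221664 and 214948 in DTHIB replicates 1 to 4. The lowest DTHIB library was above the highest DMSO library, and the log2 fold change was 0.33 (SE 0.032, adjusted p = 7.42e-08). Quantile normalization, which gives every library the same distribution of values, sets this difference to 0, because EEF1A1 is the top gene in each library. EEF1A2, the form usual in muscle and neurons, held 19386, 18902, 20118 and 20133 with DMSO and 24701, 23555, 23581 and 24380.2 with DTHIB. It rose without overlap, by 0.29 on the log2 scale (SE 0.029, adjusted p = 1.51e-07). Per kilobase of merged exons EEF1A1 stood at 29135 normalized counts with DMSO and EEF1A2 at 3999.

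The nucleotide exchange factor eEF1B recharges eEF1A with GTP. Its catalytic subunit EEF1B2 held 6686, 6655, 6871 and 6553 with DMSO and 7931, 7702, 8188 and 7953 with DTHIB, and rose by 0.25 on the log2 scale (SE 0.028, adjusted p = 7.26e-07) without overlap. Of its 50-base stretches 31.4% occur in other genes, and summed with its 7 pseudogene rows it also rose by 0.25. The related catalytic subunit EEF1D scattered in both groups, with 126, 490.0, 602 and 154 normalized counts in the DMSO and 254, 1427, 76.9 and 72.8 in the DTHIB libraries. Its mean was 343 ± 239 with DMSO and 458 ± 652 with DTHIB (SD, n = 4 each), while its log2 fold change was -0.37 (SE 0.69, adjusted p = 0.657), and DTHIB replicate 2 alone set the higher mean. Without that library the value was -1.28 and passed (adjusted p = 0.0255), and without DMSO replicate 3, DTHIB replicate 3 or DTHIB replicate 4 it was 0.0038, 0.11 or 0.14 and did not. The authors' deposited table gives EEF1D 0.11 with an adjusted p of 0.797. Other annotated genes cover 34.0% of its exon bases, with 0% on the same strand. Per kilobase of merged exons EEF1D stood at 36.5 normalized counts with DMSO, against 3494 for EEF1B2. Like its change, this level is not well measured here. EEF1G, the structural subunit, was not measured here, with 1 read over 8 libraries, and another annotated gene, AP002990.1, covers 99.9% of its exon bases.

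EEF2 is the GTPase that moves the ribosome to the next codon. Its libraries held 100707, 100418, 101846 and 102239 normalized counts with DMSO and 156934, 146532, 153247 and 156297 with DTHIB. All 4 DTHIB values were above all DMSO values, the fold change was 1.51 and its log2 was 0.60 (SE 0.030, adjusted p = 2.34e-11). By reads it was the third gene in each DMSO library and the second in each DTHIB library. Per kilobase of merged exons the level of EEF2 was 25156 with DMSO and 38056 with DTHIB, below EEF1A1 (29135) in the first and above it (36742) in the second. Of the 50-base stretches of EEF1A1 20.4% occur in other genes, against 0% for EEF2. The EEF1A1 level also leaves out its 36 pseudogene rows, 5.42% of their sum with it. Which of these genes stood higher with DTHIB therefore depends on how such reads are counted. EEF2K, the kinase that inactivates eEF2, was at 1299.6, 1310.1, 1316 and 1164 with DMSO and 1415, 1423, 1425 and 1422 with DTHIB. It rose by 0.16 on the log2 scale (SE 0.042, adjusted p = 0.00271), with the 4 DTHIB values between 1415 and 1425.

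Methyltransferases modify lysines of these elongation factors. EEF1AKMT3, 1 of the enzymes acting on eEF1A, held 328, 318, 297 and 305 with DMSO and 413, 431, 410.5 and 398 with DTHIB, a log2 rise of 0.41 (SE 0.059, adjusted p = 1.29e-05). EEF1AKMT2, which acts on another eEF1A lysine, held 378, 367, 331 and 345 with DMSO and 292, 259.5, 313 and 303 with DTHIB and fell by 0.29 on the log2 scale (SE 0.072, adjusted p = 0.00229). Neither gene's groups overlapped. EEF2KMT, the eEF2 enzyme, held 650.3, 706, 749 and 732 with DMSO and 656, 615, 667 and 663 with DTHIB and was called lower with a log2 fold change of -0.12 (adjusted p = 0.0464) with overlapping groups. That call was lost with TMM rescaling, another factor per library (adjusted p = 0.067), with quantile normalization, without the filter on low values, and in 6 of the 8 fits that leave out 1 library (adjusted p of 0.0584 to 0.146 there, all but DMSO replicate 1 and DTHIB replicate 3). EEF1AKMT1 with a log2 fold change of 0.065 and EEF1AKMT4 at -0.083 did not pass. The median of the 6 kinase and methyltransferase genes was -0.0088, and it was 0.0052 with TMM rescaling and 0.0059 with quantile normalization.

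**Figure D3:**
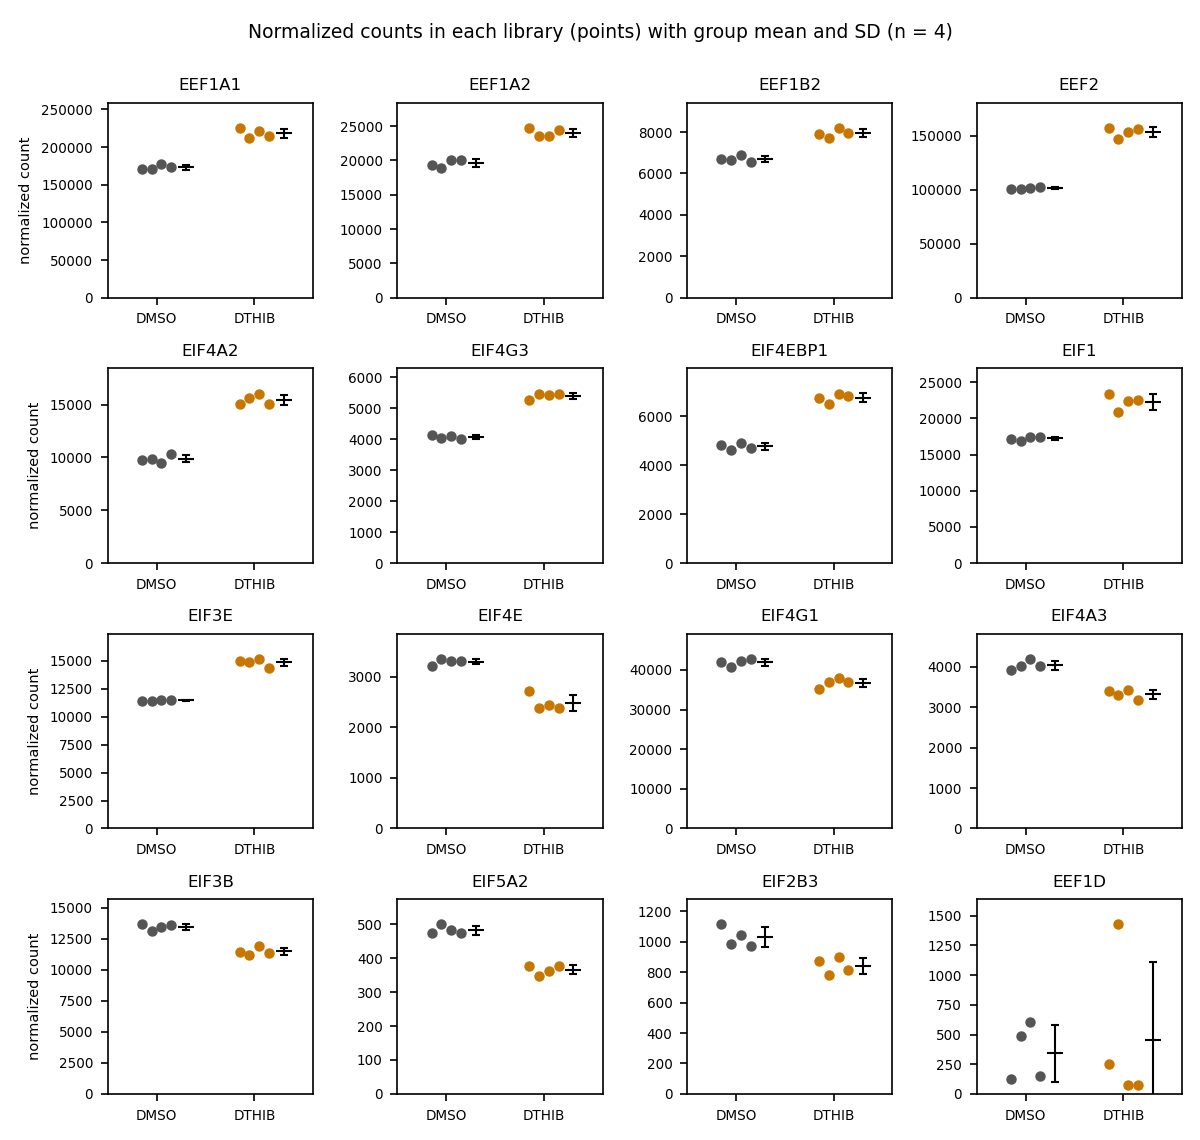
Normalized counts (vertical axis, from 0) of 16 members in each library, with grey points for the 4 DMSO and orange points for the 4 DTHIB libraries and bars for the group mean and SD. In 15 panels the groups do not overlap; in the last, EEF1D, single libraries range from 72.8 to 1427 and the groups overlap.

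Start codon selection rests on eIF1 and eIF1A, which keep the scanning ribosome open, and on eIF5, the GTPase activator of eIF2. EIF1 rose, with 17101, 16926, 17412 and 17489 normalized counts in the DMSO and 23426, 20838, 22466 and 22492 in the DTHIB libraries, a log2 fold change of 0.37 (SE 0.033, adjusted p = 3.01e-08). Its near relative EIF1B went the other way and held 1103, 1077, 1162 and 1058 with DMSO and 996, 918, 968 and 899.6 with DTHIB, a log2 fold change of -0.22 (SE 0.045, adjusted p = 0.000408). Neither gene's groups overlapped. EIF1AX, which encodes eIF1A, held 6751, 6624, 6469.8 and 6510.3 with DMSO and 5783, 5575, 5629.6 and 5451 with DTHIB, a log2 fold change of -0.23 (SE 0.028, adjusted p = 1.64e-06), or -0.15 with quantile normalization. EIF5 held 13038, 12359, 13365 and 12922 with DMSO and 12857, 11944, 12739 and 12158 with DTHIB and did not pass, with a log2 fold change of -0.057 (adjusted p = 0.129). EIF1AY, the Y-linked relative of EIF1AX, was under the minimum count.

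The eIF2 complex brings the initiator tRNA to the small subunit, and all 5 tested genes of eIF2 and of the factors with a related task were higher. EIF2S2, the beta subunit, held 9421, 9324, 9381 and 9314 with DMSO and 11282, 10779, 11759.6 and 11078 with DTHIB, a log2 rise of 0.26 (SE 0.029, adjusted p = 5.16e-07). EIF2S3, the GTP-binding gamma subunit, held 12772, 12811, 12544 and 13011 with DMSO and 15067, 13737, 14479 and 14430.2 with DTHIB, a log2 rise of 0.17 (SE 0.030, adjusted p = 7.00e-05). Both sets of 4 DTHIB values lay above the DMSO values. EIF2A and EIF2D are single proteins that can deliver initiator tRNA without eIF2. EIF2A held 6409, 6563, 6680.1 and 6746 with DMSO and 8197, 7619, 8066 and 7434 with DTHIB, a log2 fold change of 0.25 (SE 0.033, adjusted p = 5.41e-06). EIF2D held 2251, 2289, 2272 and 2299 with DMSO and 2899.7, 2832, 2765 and 2673 with DTHIB, a log2 fold change of 0.29 (SE 0.032, adjusted p = 4.77e-07). EIF2S3B, the autosomal relative of EIF2S3, rose by 0.30 on the log2 scale (adjusted p = 0.00141) with groups that overlap, and 26.8% of its 50-base stretches occur in other genes, so that reads of these genes may be split between them. That share was 22.6% for EIF2S2 and 19.2% for EIF2S3.

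EIF2B1 to EIF2B5 encode eIF2B, which exchanges GDP for GTP on eIF2. None rose, 3 fell and 2 did not pass. EIF2B3, a subunit of the catalytic part with EIF2B5, held 1113, 982, 1045 and 971 with DMSO and 871, 779.6, 899.8 and 811 with DTHIB, a log2 fold change of -0.29 (SE 0.054, adjusted p = 0.000165). EIF2B5, the catalytic subunit, held 3054, 2962, 3092 and 2933 with DMSO and 2592, 2737, 2687 and 2640.1 with DTHIB, a log2 fold change of -0.18 (SE 0.031, adjusted p = 0.000105), or -0.097 with quantile normalization. In both the 2 groups were apart. EIF2B1, of the regulatory part, held 2846, 2971, 2982 and 2934 with DMSO and 2699.6, 2761, 2542 and 2704 with DTHIB and fell by 0.13 on the log2 scale (adjusted p = 0.00206), and with quantile normalization by 0.054 (adjusted p = 0.173). EIF2B4 held 1678, 1678, 1733 and 1669 with DMSO and 1745, 1754, 1814 and 1761 with DTHIB. It had a log2 fold change of 0.066 (adjusted p = 0.0857) and, like EIF2B2 at 0.045 (adjusted p = 0.409), did not pass, although its groups do not overlap. With quantile normalization EIF2B4 and EIF2B2 passed as higher, at 0.16 and 0.12, and with TMM rescaling EIF2B4 did, at 0.080. The median of the 5 subunits was -0.13, against 0.26 for the 5 genes of the eIF2 group. The median of eIF2B was -0.054 with quantile normalization.

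eIF3 is the large scaffold that holds the small subunit, the mRNA and eIF4G together. Of its 14 tested genes 10 were higher, 2 were lower and 2 did not pass, with a median log2 fold change of 0.19. EIF3E held 11434, 11391, 11538 and 11510.5 with DMSO and 15024, 14868, 15156 and 14353 with DTHIB, the highest rise among subunits with little shared sequence, at 0.37 (SE 0.026, adjusted p = 1.74e-09). EIF3F held 5844, 5668, 5971 and 5971 with DMSO and 7626, 7109, 7269.5 and 7270.0 with DTHIB, a log2 fold change of 0.32 (SE 0.030, adjusted p = 6.37e-08). EIF3G, an RNA-binding subunit, held 3988, 3903, 4051 and 3955 with DMSO and 4758, 4559.9, 4601 and 4844 with DTHIB, a log2 fold change of 0.24 (SE 0.029, adjusted p = 1.85e-06). In these 3 genes each DTHIB library was above each DMSO library. EIF3D (log2 fold change 0.21), a subunit that can itself bind the cap of some mRNAs, was also higher, as were EIF3L (0.21), EIF3H (0.17), EIF3A (0.12) and EIF3I (0.10). EIF3I was not past the threshold without DMSO replicate 1 (0.081, adjusted p = 0.0544).

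EIF3B and EIF3J were lower. EIF3B, which forms a module with EIF3G and EIF3I, held 13633, 13126, 13462 and 13577 with DMSO and 11449, 11154, 11892 and 11349 with DTHIB, a log2 fold change of -0.23 (SE 0.028, adjusted p = 1.34e-06), so genes of 1 module moved in opposite directions. EIF3J, a loosely attached subunit, was at 7165 ± 94.1 with DMSO and 6187 ± 169 with DTHIB (SD, n = 4 each), a log2 fold change of -0.21 (adjusted p = 4.15e-06). No tested gene of the octamer around EIF3A fell: EIF3A, EIF3C, EIF3CL, EIF3E, EIF3F, EIF3H and EIF3L rose, while EIF3K with a log2 fold change of 0.041 (adjusted p = 0.211) and EIF3M at 0.033 (adjusted p = 0.382) did not pass. With quantile normalization these last passed as higher, at 0.13 and 0.085. EIF3C and EIF3CL are near copies, and 97.2% of the 50-base stretches of EIF3CL occur in other genes. Their counts were low for eIF3, 365 ± 83.6 with DMSO and 500.3 ± 58.3 with DTHIB for EIF3C and 324 ± 73.3 with DMSO and 439 ± 50.03 with DTHIB for EIF3CL, and the sum of both rose by 0.46 on the log2 scale (adjusted p = 0.000164). Without these 2 genes 8 of 12 subunits were higher and 2 were lower, with a median of 0.15. Other genes overlap 51.8% of the exon bases of EIF3L.

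The eIF4 factors bind the cap and unwind the leader, and this group split, with 4 of 10 genes higher and 6 lower. EIF4E, the cap-binding protein, held 3221, 3350.3, 3318 and 3306 with DMSO and 2720.5, 2381, 2448 and 2388 with DTHIB. Every DTHIB library was below every DMSO library, and the gene fell by 0.41 on the log2 scale (SE 0.039, adjusted p = 8.98e-08). EIF4E2, a cap-binding relative that acts in repression, held 2463, 2548, 2592 and 2493 with DMSO and 2232, 2018, 2111 and 2235 with DTHIB, a log2 fold change of -0.23 (SE 0.037, adjusted p = 3.29e-05), or -0.15 with quantile normalization. The third family member, EIF4E3, fell by 0.31 on the log2 scale (adjusted p = 0.00105), at 435 ± 35.1 with DMSO and 350.0 ± 27.7 with DTHIB (SD, n = 4 each). EIF4E1B was under the minimum count, with 61 reads over the 8 libraries.

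The eIF4G scaffolds join the cap-binding protein to the helicase and to eIF3. EIF4G1, the main form, held 41974, 40651, 42345 and 42748 with DMSO and 35315, 36847, 37872 and 37038 with DTHIB, a log2 fold change of -0.19 (SE 0.029, adjusted p = 2.33e-05). EIF4G2, a shorter relative that does not bind eIF4E, held 43609, 44227, 44679 and 44476 with DMSO and 40986, 38471, 39712 and 38634 with DTHIB, a log2 fold change of -0.17 (SE 0.028, adjusted p = 6.37e-05). EIF4G3, the second full-length form, held 4123, 4033, 4111 and 4004 with DMSO and 5252, 5464, 5423 and 5469.7 with DTHIB, a log2 rise of 0.41 (SE 0.028, adjusted p = 9.97e-10). Groups were apart in all 3 genes, 2 lower and 1 higher. Per kilobase of merged exons EIF4G1 stood at 5078 normalized counts with DMSO and EIF4G3 at 424, and at 4453 and 563 with DTHIB.

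The eIF4A helicases unwind leaders with the help of eIF4B and eIF4H. EIF4A2 held 9751, 9873, 9518 and 10325 with DMSO and 15106, 15597, 16043 and 15052 with DTHIB, a log2 rise of 0.65 (SE 0.031, adjusted p = 1.03e-11) without overlap. EIF4A1, usually the more abundant helicase, was listed at only 215, 192, 190.1 and 159 with DMSO and 306, 411, 343 and 366 with DTHIB, a log2 rise of 0.91 (SE 0.098, adjusted p = 3.87e-07). Other annotated genes, AC016876.2 and the readthrough SENP3-EIF4A1 among them, cover 48.6% of its exon bases. Summed with its 10 pseudogene rows, which gave 76.3% of the sum, its log2 fold change was 0.18 (adjusted p = 0.00194). Neither its level nor its change is well measured here. EIF4B rose by 0.22 on the log2 scale (adjusted p = 1.33e-05), at 25626 ± 379 with DMSO and 29770.2 ± 1317 with DTHIB, and EIF4H fell by 0.13 on the log2 scale (adjusted p = 0.000777), at 17998 ± 361 with DMSO and 16449.8 ± 503 with DTHIB (SD, n = 4 each). EIF4A3, the related helicase of the exon junction complex, held 3915, 4024, 4187 and 4021 with DMSO and 3394, 3299.8, 3417 and 3173 with DTHIB, a log2 fold change of -0.28 (SE 0.032, adjusted p = 8.51e-07).

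The eIF4E-binding proteins block eIF4E from eIF4G when mTOR is inactive. EIF4EBP1 held 4833, 4646, 4922 and 4692 with DMSO and 6771, 6492, 6932 and 6855 with DTHIB, a log2 rise of 0.50 (SE 0.030, adjusted p = 2.21e-10), with all DTHIB libraries above the DMSO libraries. EIF4EBP2 held 5429, 5606, 5489.6 and 5751 with DMSO and 5874, 5491, 5578 and 5539.5 with DTHIB and did not pass, with a log2 fold change of 0.013 (adjusted p = 0.72). It passed as higher with quantile normalization, at 0.10 (adjusted p = 0.00613). EIF4EBP3 held 172, 235, 182 and 203 with DMSO and 237, 197, 183 and 243 with DTHIB and did not pass, with a log2 fold change of 0.11 (adjusted p = 0.372). EIF4ENIF1, the transporter that takes eIF4E into the nucleus, held 790.1, 835, 813 and 801 with DMSO and 793, 792, 800.0 and 775 with DTHIB and did not pass, with a log2 fold change of -0.036 (adjusted p = 0.459). The groups of EIF4EBP2, EIF4EBP3 and EIF4ENIF1 overlapped. A readthrough gene shares 73.4% of the exon bases of EIF4EBP3.

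eIF5A relieves ribosomes stalled at prolines and carries the modified lysine hypusine. All 3 genes were lower. EIF5A held 13555, 13421, 14076 and 13547 with DMSO and 12490.5, 11476, 12274 and 11891 with DTHIB, a log2 fold change of -0.18 (SE 0.030, adjusted p = 5.20e-05). EIF5A2 held 473, 499.5, 484 and 473 with DMSO and 378, 348, 363 and 378 with DTHIB, a log2 fold change of -0.40 (SE 0.055, adjusted p = 6.93e-06). In both, no DTHIB library reached a DMSO library. EIF5AL1, a copy of EIF5A, held 381, 351, 405 and 373 with DMSO and 350.1, 299, 331 and 349 with DTHIB. It had a log2 fold change of -0.19 (adjusted p = 0.0249), and its call was lost without DMSO replicate 1 (-0.18, adjusted p = 0.0533), DMSO replicate 3 (-0.15, adjusted p = 0.0877) or DTHIB replicate 2 (-0.14, adjusted p = 0.0886).

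Subunit joining is driven by EIF5B, a GTPase, and EIF6 keeps free large subunits apart from small ones. EIF5B held 7779.6, 7747, 7771 and 7518 with DMSO and 6613, 6551, 7054 and 6416 with DTHIB, a log2 fold change of -0.21 (SE 0.031, adjusted p = 1.42e-05) without overlap. EIF6 held 1841, 1874, 1876 and 1914 with DMSO and 1946, 1832, 1747 and 1907 with DTHIB and did not pass, with a log2 fold change of -0.015 (adjusted p = 0.738). A pair of members bear the names of factors and have other roles. EIF1AD, a nuclear protein with an eIF1A-like domain, held 981, 1026, 969 and 932 with DMSO and 784, 725, 770.0 and 749 with DTHIB, a log2 fold change of -0.37 (SE 0.044, adjusted p = 1.43e-06). EEF1E1, a scaffold of the multi-tRNA synthetase complex, held 553, 502, 555 and 558 with DMSO and 472, 491, 527 and 455 with DTHIB and was called lower with a log2 fold change of -0.16 (adjusted p = 0.0257) with overlapping groups. Its call was lost with quantile normalization (-0.13, adjusted p = 0.0544) and in 5 of the 8 fits that leave out 1 library: DMSO replicate 1, 3 or 4, or DTHIB replicate 1 or 4 (adjusted p of 0.0600 to 0.0886).

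Whether related genes moved unequally was asked with the log2 ratio of the 2 genes within each library, which a scaling factor per library leaves nearly unchanged. Of 9 pairs compared by an exact two-sided permutation test over the 8 libraries, 6 had ratios that did not overlap between groups, each with the smallest p that 4 against 4 libraries allow, 0.0286, and an adjusted p of 0.0429 (Benjamini-Hochberg over the 9). Among single genes 57.9% had groups that did not overlap, and no such share was computed for ratios of other gene pairs. The ratio of EIF4G1 to EIF4G3 fell by 0.60 on the log2 scale (SE 0.022) and that of EIF4E to EIF4E2 by 0.18 (SE 0.042). The ratio of EIF1 to EIF1B rose by 0.59 on the log2 scale (SE 0.042) and that of EIF5A to EIF5A2 by 0.21 (SE 0.034). EIF4EBP1 gained 0.49 (SE 0.044) on EIF4EBP2 and 0.91 (SE 0.054) on EIF4E, the protein it inhibits. In each library the log2 ratio of EIF4EBP1 to EIF4E was 0.59, 0.47, 0.57 and 0.50 with DMSO and 1.32, 1.45, 1.501 and 1.52 with DTHIB. Without DMSO replicate 1, 2 or 4 the adjusted p of these 6 pairs was 0.0514 to 0.0857, with differences of the same sign.

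The other 3 ratios overlapped. EEF1A1 to EEF1A2 differed by 0.041 (SE 0.023, adjusted exact p = 0.161), EIF4A1 to EIF4A2 by 0.26 (SE 0.14, adjusted exact p = 0.147), and EIF4G1 to EIF4G2 by -0.024 (SE 0.041, adjusted exact p = 0.714). Without DTHIB replicate 1 the difference for EIF4G1 to EIF4G2 was 0.014.

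**Figure D4:**
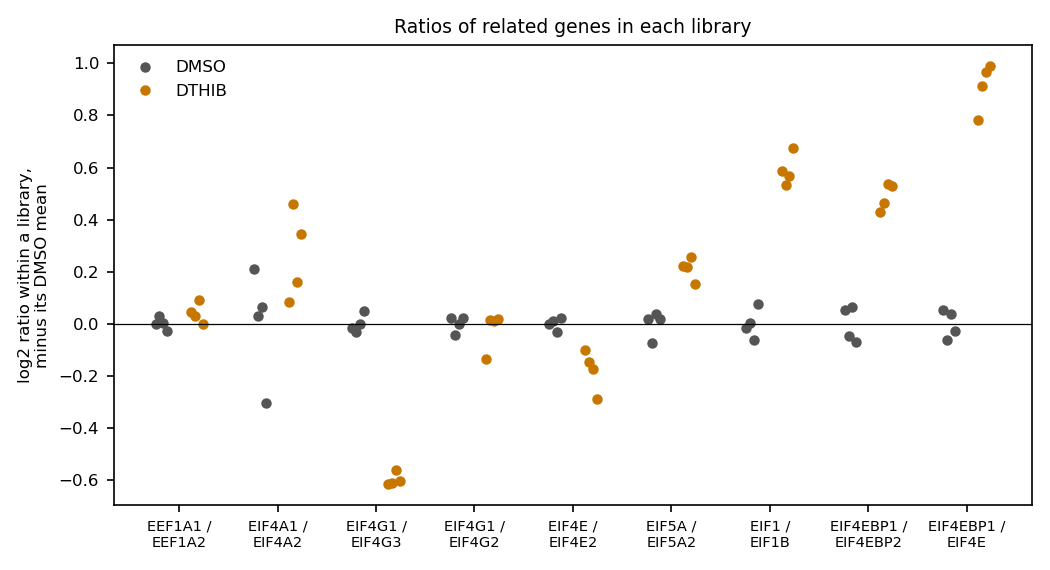
Log2 ratio of 2 related genes within each library, minus the mean of the DMSO libraries (vertical axis), for 9 pairs, with grey points for the 4 DMSO and orange points for the 4 DTHIB libraries. In 6 pairs the groups are apart, from the fall of 0.60 for EIF4G1 over EIF4G3 to the rise of 0.91 for EIF4EBP1 over EIF4E.

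Genes that work beside these factors were counted in 4 further lists of 39 tested genes, of which 6 were higher, 17 were lower and 16 did not pass (median log2 fold change -0.094), beside 31.0% and 33.7% of all genes. Of 8 termination, recycling and rescue factors 6 were lower, none was higher and 2 did not pass. GSPT1, the release factor GTPase eRF3, was at 14483 ± 378 with DMSO and 11619.5 ± 473 with DTHIB, a log2 fold change of -0.32 (adjusted p = 1.49e-07). The recycling factor ABCE1 was at 5610.0 ± 131 with DMSO and 4766 ± 202 with DTHIB, a log2 fold change of -0.24 (adjusted p = 7.73e-06), and DENR, another recycling and reinitiation factor, at 5720.4 ± 80.2 with DMSO and 4875 ± 187 with DTHIB, a log2 fold change of -0.23 (adjusted p = 4.93e-06), each mean with its SD (n = 4). The release factor ETF1 was lower as well, with a log2 fold change of -0.11.

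Poly(A)-binding proteins and regulators of initiation gave 4 of 16 higher, 7 lower and 5 not passed. DHX29, a helicase for structured leaders, fell by 0.41 on the log2 scale (adjusted p = 7.37e-09), at 2688 ± 81.9 with DMSO and 2024 ± 28.3 with DTHIB. LARP1, the protein that binds TOP motifs, rose by 0.25 on the log2 scale (adjusted p = 1.11e-06), at 14581 ± 519.7 with DMSO and 17301 ± 259 with DTHIB. PABPC1, the main cytoplasmic poly(A)-binding protein and itself encoded by a known TOP mRNA, rose by 0.26 on the log2 scale (adjusted p = 1.20e-06), while PABPC4 fell by 0.20 on the log2 scale (adjusted p = 4.20e-06). The kinases RPS6KB1 and RPS6KB2, which act below mTOR, fell by 0.30 on the log2 scale (adjusted p = 1.44e-06) and by 0.31 (adjusted p = 1.19e-06). MTOR with a log2 fold change of 0.040 (adjusted p = 0.285) and RPTOR at -0.0039 (adjusted p = 0.946) did not pass.

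Among 5 partners of the elongation factors 2 were higher, 2 lower and 1, VARS1, not passed. VARS1 had low counts, 31.1 ± 3.36 with DMSO and 25.3 ± 20.5 with DTHIB (SD, n = 4 each). Its log2 fold change of -0.55 had an SE of 0.34, so its change is not well measured here. EEFSEC, the elongation factor for selenocysteine, fell by 0.40 on the log2 scale (adjusted p = 3.01e-08), at 1513 ± 12.04 with DMSO and 1146 ± 30.6 with DTHIB. TPT1, which binds eEF1A and is encoded by a TOP mRNA, rose by 0.28 on the log2 scale (adjusted p = 1.55e-07), at 19976 ± 273 with DMSO and 24280.1 ± 755 with DTHIB. DOHH, the last enzyme of hypusine synthesis, fell by 0.30 on the log2 scale (adjusted p = 0.000156), and DHPS, the first, rose by 0.52 on the log2 scale (adjusted p = 0.000436) at low counts, 91.6 ± 8.87 with DMSO and 132 ± 10.9 with DTHIB. Of 10 mitochondrial translation factors none was higher, 2 were lower and 8 did not pass. MTIF2, the mitochondrial initiation factor that brings the first tRNA, fell by 0.39 on the log2 scale (adjusted p = 3.04e-08), and GFM2, which recycles mitochondrial ribosomes, by 0.24 (adjusted p = 1.53e-05).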

How the data were processed

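Poly(A) RNA of 8 libraries was sequenced, and the titles gave the treatment groups. The submitters' processing notes name the build GRCh38 and the tools DESeq2 2.11.40.2, featureCounts 1.6.3, HISAT2 2.1.0, StringTie 1.3.4 and Trimmomatic 0.36.5, with annotation release, strand setting and the handling of reads that map to several places or overlap several genes not given in the sources used here. Without a known strand setting, reads of overlapping and antisense genes cannot be told apart. The signal the authors deposited is, by the name of their table, a DESeq2-normalized count per gene and library, that is, reads divided by a size factor. All values in a library were whole multiples of 1 number, which gave the read totals. The check passed for 100% of values, within 0.01 at low counts and within a limit that widened with the count. For the most abundant genes it is therefore a loose check. Their deposited result table holds, per gene, a mean normalized count (a signal), a log2 fold change, its standard error and Wald score, and a p-value and adjusted p-value.

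Symbols were found for 58472 of the 58884 identifiers and GENCODE 29 positions for 58611. Values were tested as log2(normalized count + 1) with limma 3.58.1 (lmFit, eBayes with trend) in R 4.3.3, two-sided, over genes with a mean of at least 10, without covariates. Benjamini-Hochberg adjusted p-values under 0.05 were called higher or lower; fold changes on this scale understate those of low genes. Exon overlap was taken over both strands, and shared sequence as the share of 50-base stretches of a gene's transcripts found in other genes. Levels per kilobase use merged exons. Before averaging, libraries were compared by chi-square, which per gene was 2.39 to 5.19 within groups and 51.9 to 70.0 between them, so no pair agreed within sampling noise. Genes given in full are, in each complex, the 4 or fewer members of smallest adjusted p that have a mean of at least 100, with both genes of each pair; others are given by name or count. The members, gene lists and tests were chosen with earlier results of these data known. The tests were tried on simulated data. The following were varied 1 at a time: the pseudocount (0.5 or 5), the filter (none, or a mean of 50), the scaling (TMM or quantile), a block for the replicate number, each library left out, and sums with pseudogenes. EEF1AKNMT was not matched in the table.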

Additional observations from a re-analysis of the deposited data

Results flagged for a closer look

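In each group of 4 libraries the highest and lowest value of each member was set against the other 3; a library was picked out where its gap to the nearest other, as a share of the group's range, exceeded Dixon's critical value. This rule picks out about 1 in 20 groups by chance, and it picked out 9 of the 122 groups. EEF1D was at 1426.9 normalized counts in DTHIB replicate 2 and at 72.8 to 254 in the other DTHIB libraries, which is the only one of the 9 that decides a call or a direction given in the report. EIF3C was at 587.23 in DTHIB replicate 3, against 466 to 480.3 in the others. EIF3CL, its near copy, was at 433.85 in DMSO replicate 1, against 282 to 292. EIF2B4 was at 1732.7 in DMSO replicate 3, against 1669 to 1678. EEF1AKMT4 was at 211.49 in DMSO replicate 2, against 256 to 263, and EEF1E1 at 502.4 in the same library, against 553 to 558. DMSO replicate 4 held the remaining 3: EIF4B at 26194, against 25424 to 25457, EIF5B at 7518.4, against 7746 to 7780, and EEF2K at 1164.4, against 1299.6 to 1316. EIF4B, EIF5B and EEF2K kept their calls without that library.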

How the results depend on the processing

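The counts of members were 27 higher and 22 lower with pseudocounts of 0.5 or 5, with a mean of at least 50 and with the replicate block; 27 and 21 without a filter; 28 and 21 with TMM rescaling; and 31 and 19 with quantile normalization. Leaving out 1 library gave 26 to 27 and 19 to 22. TMM rescaling and quantile normalization moved the median of all genes by 0.014 and 0.022. Among the 34 members with under 10% of exon bases and sequence shared with other genes, a limit chosen after seeing the data, 15 were higher and 12 lower, fewer because fewer members were counted. The sign turned for a few values. EIF4ENIF1 was at 0.044 and EIF6 at 0.069 with quantile normalization, and neither passed. Leaving out 1 library, EIF6 ran from -0.038 to 0.014, EIF4EBP2 from -0.0082 to 0.029, and EEF1D from -1.28 (without DTHIB replicate 2, where it passed) to 0.14, with 0.0038, 0.11 and 0.14 without DMSO replicate 3, DTHIB replicate 3 or DTHIB replicate 4. The median of the kinase and methyltransferase genes was 0.0052 with TMM rescaling and 0.0059 with quantile normalization, and ran from -0.041 to 0.024 with 1 library left out (0.023 without DMSO replicate 3). The difference between groups in the log2 ratio of EIF4G1 to EIF4G2 ran from -0.038 to 0.014 with 1 library left out. The cause of these changes was not tested. Replicate numbers did not pair the libraries: same-numbered deviations correlated at -0.072, 0.011, 0.014 and 0.0018, and only DMSO replicate 2 matched its own number best. The replicate block, with 5288 genes higher and 5770 lower over all genes, changed no member's call. The planned edgeR and DESeq2 refits were not run. Members under about 500 counts, among them EIF2S3B, EIF5AL1 and EEF1AKMT1, have standard errors of 0.05 or more on the log2 scale, and differences of that size were not detectable there at this depth.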

Other observations

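Pseudogenes of several factors have rows of their own. The 36 pseudogene rows of EEF1A1 summed to 9944 normalized counts with DMSO and 12502 with DTHIB, 5.42% of their sum with the parent, and the summed log2 fold change was 0.33, as for EEF1A1 alone. The 10 pseudogene rows of EIF4A1 summed to 892 with DMSO and 866 with DTHIB while EIF4A1 itself went from 189 to 356. The 3 pseudogene rows of EIF4E summed to 427 and 311, 11.3% of the sum, and the summed gene fell by 0.42.

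Annotated readthrough and overlapping genes share exon bases with some factors and have rows of their own. The readthrough ANKHD1-EIF4EBP3 was at 56.1 normalized counts with DMSO and 101 with DTHIB, beside 198 and 215 for EIF4EBP3. AP002990.1, which covers EEF1G, was at 97.7 and 82.3. SENP3-EIF4A1 was at 5.32 and 6.89. How the counting split such reads is unknown.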
